A study of Homo sapiens with 24 samples.

Results

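Transcripts of 10 genes that encode the core subunits of mitotic cohesin and of condensin I were followed in U2OS osteosarcoma cells exposed to mocetinostat, an inhibitor of class I histone deacetylases. The genes were taken by name from the 57820 genes of the deposited count tables, 5 for cohesin (SMC1A, SMC3, RAD21, STAG1 and STAG2) and 5 for condensin I (SMC2, SMC4, NCAPD2, NCAPG and NCAPH), and all 10 were counted in all 24 libraries.

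Both complexes are rings built on a pair of SMC ATPases whose heads are joined by a kleisin protein, with HEAT repeat proteins bound to the kleisin. Cohesin holds sister chromatids together from replication to anaphase and folds interphase chromosomes into loops, and in anaphase separase cuts its kleisin, RAD21. Condensin I acts on chromosomes after the nuclear envelope breaks down and compacts them into rods, and it shares SMC2 and SMC4 with condensin II, which has its own kleisin and HEAT repeat subunits. Transcripts of several condensin subunits are known to be most abundant in late cell cycle phases, whereas cohesin is made and loaded through interphase as well.

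The study compared WT and ID3-KO cells, the latter lacking ID3, an inhibitor of bHLH transcription factors, and asked how each genotype responds to the drug. Of the 8 groups, 4 came from AID-DIvA cells, U2OS cells that carry the AsiSI restriction enzyme fused to a degron. These were WT or ID3-KO, and either untreated or, after 24 h of mocetinostat, kept for 24 h in drug-free medium, here called recovered. The other 4 groups were plain U2OS cells, WT or ID3-KO, untreated or given mocetinostat and harvested with no time in drug-free medium. That stage was read from the description in the labels together with the methods. Each group had 3 biological replicates, so n = 3 throughout. The mocetinostat dose and any induction of AsiSI are not given for these samples, nor is the number of knockout clones. The stage and the cell line coincide and cannot be told apart. For AID-DIvA samples the titles and the treatment field of the labels disagree, and groups follow the titles.

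Total counts per library lay between 37878751 and 76906266, and the members had between 1448 and 77622 counts each, so the spread between replicates rather than sampling noise set the precision. ID3 itself was lower in KO than in WT cells in each of the 4 settings, and its RNA was not absent. In AID-DIvA cells it had 33.2 ± 3.77 CPM (counts scaled to library size, mean ± SD) in KO and 49.0 ± 1.91 CPM in WT untreated, and 61.8 ± 2.45 and 115.7 ± 14.1 CPM recovered. U2OS cells had 31.7 ± 1.62 and 64.8 ± 17.0 CPM untreated, and 36.8 ± 5.28 and 85.2 ± 6.92 CPM treated. ID3 rose after recovery by log2 1.24 in WT and 0.90 in KO cells (edgeR, adjusted p = 9.1e-08 and 3.8e-05). Before recovery the changes were 0.40 (adjusted p = 0.088) and 0.22 (adjusted p = 0.021). Whether the counted reads lie outside the altered part of ID3 was not examined. The summed level of 7 osteoblast lineage markers was 1680 to 4312 CPM over all libraries, of which SP7 passed no filter on low counts, and the leukocyte and epithelial markers PTPRC and EPCAM together reached 4.72 to 10.99 CPM. Both sums moved with treatment: the first lay at 3910 to 4312 CPM in untreated and 2446 to 2696 CPM in treated WT U2OS cells, and the second at 5.86 to 6.61 and 9.40 to 9.63 CPM. Single markers went either way: in recovered WT cells log2 fold changes ran from -0.48 to 0.955 and from -1.26 to 0.28. Of 6 osteoblast markers tested, 4 were lower and 0 higher (adjusted p below 0.05) in untreated KO than WT U2OS cells, beside 8.63% and 6.56% of all genes. In untreated AID-DIvA cells 3 were lower and 1 higher, beside 18.1% and 18.6%. The part of these markers in the results below was not tested. In these bulk samples, fewer cells of a cell cycle phase and less RNA per cell cannot be told apart.

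No pair of replicates agreed within sampling noise, and libraries of 4 groups stood apart. In the untreated WT U2OS group, replicate 1 differed from replicates 2 and 3 with a chi-square of 103 and 91.1 per gene, against 4.32 between replicates 2 and 3. In the recovered KO AID-DIvA group, replicate 1, the library with the fewest counts, differed from the others by 20.1 and 26.9 per gene, against 4.57 between them. In the recovered WT AID-DIvA group, replicate 1 differed from the others by 13.5 and 17.1 per gene, against 2.79 between them. Among untreated KO AID-DIvA cells, replicates 2 and 3 differed by 27.3 and replicate 1 from each by 12.6 and 11.9. In the other 4 groups no pair passed 12.6. Where leaving out a library changed a member's call, this is said beside the result.

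The region upstream of a start site is where factors of the cell cycle bind. Promoter sequences of 9 of the 10 members were read from a RefSeq table (build GRCh38.p14, unlike the counts, which are on GRCh37). The promoter of RAD21 was not examined. The 250 bases before the start are shown for 4 condensin I subunits because their responses differed most from each other across the stages described below. Since they were chosen by response, whether motifs go with responses was not tested. Capitals mark TTTGAA or TTCGAA (the cell cycle genes homology region, CHR) and CCAAT (the CCAAT box), in either orientation, so that TTCAAA and ATTGG are the same motifs on the other strand. The regions are chr4:17810729-17810978 for NCAPG, chr3:160399400-160399649 for SMC4, chr12:6493852-6494101 for NCAPD2 and chr2:96335516-96335765 for NCAPH, all on the plus strand.
NCAPG: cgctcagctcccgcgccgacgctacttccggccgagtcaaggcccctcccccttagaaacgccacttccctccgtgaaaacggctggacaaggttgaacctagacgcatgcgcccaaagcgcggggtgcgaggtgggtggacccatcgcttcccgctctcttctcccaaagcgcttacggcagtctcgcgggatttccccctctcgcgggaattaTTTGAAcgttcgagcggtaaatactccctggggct
SMC4: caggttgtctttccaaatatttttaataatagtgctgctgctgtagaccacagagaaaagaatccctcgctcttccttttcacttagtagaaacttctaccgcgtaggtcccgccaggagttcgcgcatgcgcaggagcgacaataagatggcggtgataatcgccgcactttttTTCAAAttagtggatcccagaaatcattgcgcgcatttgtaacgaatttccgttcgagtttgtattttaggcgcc
NCAPD2: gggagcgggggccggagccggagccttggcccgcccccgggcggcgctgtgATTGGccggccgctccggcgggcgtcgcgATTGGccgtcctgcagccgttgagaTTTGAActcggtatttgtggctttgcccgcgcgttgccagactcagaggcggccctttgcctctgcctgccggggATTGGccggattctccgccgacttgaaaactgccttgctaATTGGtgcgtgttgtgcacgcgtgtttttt
NCAPH: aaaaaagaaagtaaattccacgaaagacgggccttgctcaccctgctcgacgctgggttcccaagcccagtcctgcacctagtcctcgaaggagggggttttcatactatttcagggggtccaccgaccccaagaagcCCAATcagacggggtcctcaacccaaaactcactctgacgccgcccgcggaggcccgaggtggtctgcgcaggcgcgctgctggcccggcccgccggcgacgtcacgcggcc

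A CHR match lay 35 bases before the start in NCAPG, 75 bases before it in SMC4 and 145 bases before it in NCAPD2, which also held 4 CCAAT matches. NCAPH had no CHR match and 1 CCAAT match. The 9 genes have 14 windows (300 bases, including 50 after the start), and a gene was counted if any of its windows matched. The shares over all promoters are per window, so the counts of genes and these shares are not on the same basis. The CHR was found in 5 genes, SMC2 and SMC3 included, and it is found in 16.4% of all 35116 promoters. With all libraries, neither SMC2 (-0.16 in WT and -0.29 in KO cells) nor SMC3 (0.08 and -0.02) passed the test between stages described below. SMC2 and SMC4 each have another window, which held no CHR match. CCAAT was found in 4 genes (STAG1, STAG2, NCAPD2 and NCAPH) and in 34.6% of all promoters. Any of the E2F words TTTCCCGC, TTTCGCGC, TTTGCCGC and TTTGGCGC was found in 3 genes (SMC1A, STAG1 and STAG2) and in 3.31% of all promoters. No motif overlapped another. A match is a string of letters and not evidence of binding.

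Between genes, levels were compared only per length, in the deposited TPM (counts scaled to gene length and library size). In untreated WT AID-DIvA cells the order from the highest was NCAPD2 (426.6 TPM), RAD21 (299 TPM), NCAPH (209 TPM), SMC3 (172 TPM), SMC1A (111 TPM), SMC4 (102 TPM), SMC2 (88.4 TPM), NCAPG (68.9 TPM), STAG1 (50.2 TPM) and STAG2 (38.3 TPM), and no neighbours in that order overlapped in their replicates. NCAPD2 was the highest and STAG2 the lowest of the 10 genes in each of the 8 groups. The order changed in KO cells, where NCAPH stood below SMC3 in each of the 4 groups. In untreated WT U2OS cells neighbours overlapped from SMC3 to SMC4, from NCAPG to STAG2, and between RAD21 and NCAPH. The length used matters to this order, since the counted exons of SMC1A span 10674 bases and those of NCAPH 3278.

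Several members overlap other genes, which affects counts taken from either strand. The counts from the reverse strand alone were 1.18 to 1.44 times those from either strand for SMC4, which overlaps IFT80 and TRIM59, 1.13 to 1.34 times for NCAPG, which overlaps LCORL, and 1.07 to 1.22 times for STAG1. RAD21 had ratios of 1.04 to 1.07, and the other members 0.993 to 1.01. With reverse-strand counts the log2 fold change of SMC4 was -0.75 in WT and -0.90 in KO cells after recovery and -0.23 and -0.17 before it, and the same number of members was called in each of the 12 comparisons. NCAPD2 had 2.81% to 6.74% of its reads on the other strand, where MRPL51 lies.

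**Figure D1:**
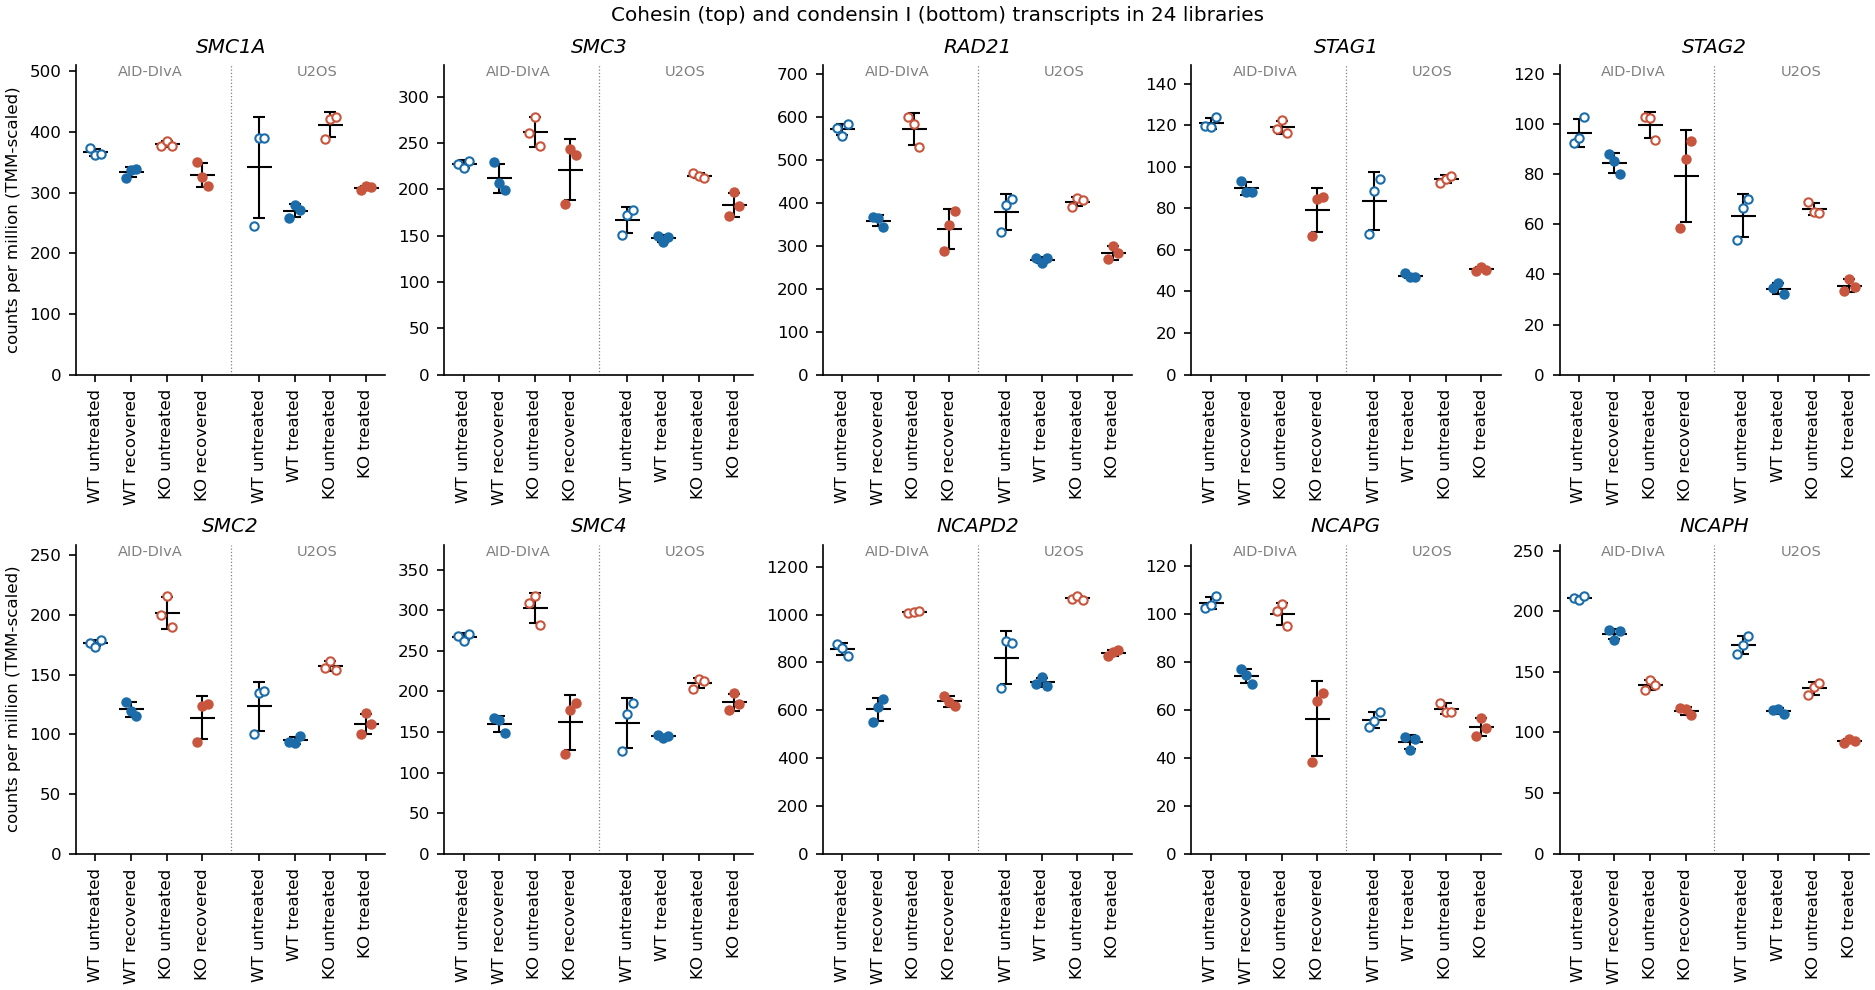
TMM-scaled CPM on the y axis (linear, from 0) for each of the 10 genes in the 8 groups on the x axis, WT in blue and ID3-KO in red, untreated as open and treated as filled points, with the mean and SD of 3 replicates as a bar. The treated points lie below their untreated points in most panels, and NCAPH is lower in KO than in WT cells in every pair of groups.

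After recovery, 9 of the 10 members were lower in treated than in untreated WT cells and 8 of 10 in KO cells, and none was higher. Over all genes tested, 23% were called lower in WT and 19.9% in KO cells, where a gene is called when its adjusted p is under 0.05, and 23.9% and 20.2% were called higher. No member was called beyond a log2 change of 1. Of all genes, 2.52% in WT and 2.56% in KO cells were called below -1, and 4.86% and 4.9% above 1. The median log2 fold change of the 5 condensin I genes was -0.49 in WT and -0.82 in KO cells. That of the 5 cohesin genes was -0.19 and -0.33, and the median over all genes tested was -0.0005 and -0.02. In KO cells without recovered replicate 1, the median of all 10 members was -0.55, against -0.63 with it. The condensin I values then ran from -0.74 for SMC4 to -0.25 for NCAPH.

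SMC4, the ATPase that pairs with SMC2 in both condensins (ENSG00000113810.11, chromosome 3 from 160117062 to 160152750), was the member with the largest fall after recovery in both genotypes. In WT cells it had 269, 263 and 271 CPM untreated and 167, 164 and 149 CPM recovered. The groups were far apart, with a log2 fold change of -0.73 (SE 0.048, adjusted p = 5.0e-08). In KO cells it had 309, 318 and 282 CPM untreated and 123, 177 and 186 CPM recovered. The log2 fold change was -0.90 (SE 0.13, adjusted p = 5.6e-04) and -0.74 without recovered replicate 1, the lowest library.

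SMC2 (ENSG00000136824.14, chromosome 9 from 106856541 to 106903698), its partner, had 177, 174 and 179 CPM in untreated and 127, 120 and 115 CPM in recovered WT cells. The recovered level was 0.69 of the untreated one (log2 -0.54, SE 0.045, adjusted p = 6.2e-07). In KO cells SMC2 went from 200.3, 216 and 190 CPM to 93.4, 124 and 125 CPM. That was a log2 fold change of -0.82 (SE 0.11, adjusted p = 2.7e-04), or -0.70 without the library that stood apart.

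NCAPD2, a HEAT repeat subunit of condensin I (ENSG00000010292.8, chromosome 12 from 6602522 to 6641121), fell from 876, 861 and 827 CPM to 552, 612 and 649 CPM in WT cells (log2 -0.49, SE 0.053, adjusted p = 5.8e-06). In KO cells the untreated libraries held 1007, 1010 and 1017 CPM and the recovered ones 661, 634 and 617 CPM. The drop was tight in every replicate, at log2 -0.67 (SE 0.052, adjusted p = 9.2e-06). Unlike SMC2 and SMC4, NCAPD2 was not low in recovered KO replicate 1, and the value without that library was -0.69.

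NCAPG, the other HEAT repeat subunit (ENSG00000109805.5, chromosome 4 from 17812525 to 17846485), had 103, 104 and 107 CPM in untreated and 76.9, 74.5 and 70.8 CPM in recovered WT cells. It fell by 0.49 on the log2 scale (SE 0.046, adjusted p = 1.8e-06). In KO cells the untreated libraries held 101, 104 and 94.8 CPM and the recovered ones 38.3, 63.6 and 67.2 CPM. Replicate 1 was by far the lowest, and the log2 fold change of -0.82 (SE 0.17, adjusted p = 0.0039) became -0.61 without it.

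NCAPH, the kleisin of condensin I (ENSG00000121152.5, chromosome 2 from 97001525 to 97039583), had the smallest change among the condensin genes. It had 211, 210 and 212 CPM in untreated and 184, 176 and 184 CPM in recovered WT cells, a log2 fold change of -0.21 (SE 0.039, adjusted p = 5.9e-04). In KO cells it had 135, 143 and 140 CPM untreated and 120.4, 119 and 114 CPM recovered. The change of -0.24 (SE 0.057, adjusted p = 0.0080) was of like size, and recovered KO replicate 1 did not stand apart for this gene. Without recovered KO replicate 3 the value was -0.20 and missed the threshold (adjusted p = 0.052).

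RAD21, the kleisin that closes the cohesin ring (ENSG00000164754.8, chromosome 8 from 117858174 to 117887105), fell more than the other cohesin genes. In WT cells it had 574, 557 and 583 CPM untreated and 367, 365 and 344 CPM recovered, 0.63 of the untreated level (log2 -0.66, SE 0.041, adjusted p = 3.2e-08). KO cells held 601, 584 and 531 CPM untreated and 288, 348 and 382 CPM recovered. The groups did not overlap, and the log2 fold change was -0.75 (SE 0.097, adjusted p = 2.5e-04), or -0.65 without replicate 1.

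STAG1 and STAG2 are alternative HEAT repeat subunits of cohesin, and a given ring holds either STAG1 or STAG2. STAG1 (ENSG00000118007.8, chromosome 3 from 136055077 to 136471220) had 119.8, 119 and 124 CPM in untreated and 93.4, 87.9 and 87.7 CPM in recovered WT cells, a log2 fold change of -0.42 (SE 0.044, adjusted p = 4.5e-06). KO cells had 118, 122 and 116 CPM untreated and 66.9, 84.8 and 85.6 CPM recovered (log2 -0.59, SE 0.092, adjusted p = 8.3e-04). Replicate 1 was again the lowest, and the value without it was -0.48.

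STAG2 (ENSG00000101972.14, chromosome X from 123094062 to 123556514) had a smaller difference than STAG1. Untreated WT cells held 92.4, 94.6 and 103 CPM and recovered WT cells 88.3, 85.2 and 80.3 CPM, a log2 fold change of -0.19 (SE 0.053, adjusted p = 0.011), or -0.14 and no longer called without untreated replicate 3 (adjusted p = 0.074). KO cells had 103, 102 and 93.6 CPM untreated and 58.6, 86.0 and 93.4 CPM recovered. The highest recovered and lowest untreated values nearly met, and the log2 difference of -0.33 (SE 0.14, adjusted p = 0.095) did not pass the test. It was -0.15 without recovered replicate 1 (adjusted p = 0.069), and -0.44 and called without recovered replicate 3 (adjusted p = 0.026).

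The SMC arms had the smallest differences among the cohesin genes. SMC1A (ENSG00000072501.13, chromosome X from 53401070 to 53449677) fell by 0.13 on the log2 scale in WT cells (SE 0.038, adjusted p = 0.015) and by 0.21 in KO cells (SE 0.059, adjusted p = 0.019). In fits that each left out 1 library, the WT call was kept in 5 of 6, with adjusted p up to 0.068, and the KO call in 2 of 6, with adjusted p up to 0.12. SMC3 (ENSG00000108055.9, chromosome 10 from 112327449 to 112364394) did not pass the test in either genotype, with log2 differences of -0.09 (95% confidence interval -0.20 to 0.016, adjusted p = 0.15) and -0.24 (-0.47 to -0.016, adjusted p = 0.082). Single libraries moved both values: in WT cells it was -0.16 and called without recovered replicate 1 (adjusted p = 9.5e-05), and in KO cells -0.12 without recovered replicate 1 (adjusted p = 0.12).

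Before recovery, 6 of 10 members were lower in treated WT cells and 10 of 10 in treated KO cells, beside 22.9% and 34% of all genes tested. None was higher, beside 26% and 35.8%. The WT count depended on untreated replicate 1, which was the lowest of its group for all 10 genes: without it all 10 were called, and without any other library 4 were, SMC2 and NCAPG being lost. The log2 fold changes were led by the STAG genes, and none reached -1, which 5.06% of genes passed in WT and 5.77% in KO cells (13.6% and 14.6% passed 1).

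STAG2 had 53.6, 66.6 and 70.1 CPM in untreated and 34.5, 36.5 and 32.2 CPM in treated WT U2OS cells. It fell to 0.54 of the untreated level (log2 -0.88, SE 0.11, adjusted p = 5.1e-04), and the change was -0.996 without untreated replicate 1. In KO cells it went from 68.9, 65.0 and 64.5 CPM to 33.3, 38.3 and 35.0 CPM. Here the log2 fold change was -0.90 (SE 0.053, adjusted p = 7.0e-13).

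STAG1 followed closely. Untreated WT cells held 67.6, 88.5 and 94.4 CPM and treated WT cells 48.8, 46.9 and 47.1 CPM (log2 -0.81, SE 0.12, adjusted p = 0.0012, or -0.94 without untreated replicate 1). In KO cells 92.1, 94.3 and 95.7 CPM stood against 49.8, 51.8 and 50.5 CPM. The replicates agree within a few CPM, and the log2 fold change was -0.89 (SE 0.044, adjusted p = 3.3e-14).

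RAD21 had 332, 395 and 409 CPM in untreated and 273, 260.1 and 271 CPM in treated WT cells (log2 -0.49, SE 0.094, adjusted p = 0.0034, or -0.59 without untreated replicate 1). KO cells held 391, 411 and 407 CPM untreated and 268, 299.98 and 283 CPM treated (log2 -0.50, SE 0.045, adjusted p = 1.1e-09). The treated and untreated libraries did not overlap in either genotype.

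NCAPH was the condensin gene with the largest change at this stage. It had 165, 173 and 179 CPM in untreated and 119, 119 and 115 CPM in treated WT cells, a log2 fold change of -0.54 (SE 0.069, adjusted p = 4.3e-04), or -0.58 without untreated replicate 1. KO cells held 131, 138 and 141 CPM untreated and 91.0, 94.7 and 92.9 CPM treated, with a log2 fold change of -0.55 (SE 0.044, adjusted p = 1.4e-10).

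The other condensin genes had smaller differences. SMC2 fell by 0.38 in WT (adjusted p = 0.037, with -0.52 without untreated replicate 1) and by 0.53 in KO cells (adjusted p = 2.6e-09). For SMC4, untreated WT cells held 127, 172 and 185 CPM and treated WT cells 146, 143 and 145 CPM. The groups overlapped through replicate 1, and the log2 difference of -0.15 (95% confidence interval -0.47 to 0.16, adjusted p = 0.38) did not pass. Without that library SMC4 was called, at -0.31 (adjusted p = 1.2e-10). In KO cells SMC4 went from 204, 216 and 212 CPM to 177, 198 and 185 CPM, a fall of 0.17 (SE 0.046, adjusted p = 0.0021).

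NCAPG fell by 0.25 in WT (adjusted p = 0.034, with -0.29 without untreated replicate 1) and by 0.19 in KO cells (adjusted p = 0.0022). NCAPD2 was called only in KO cells among the main comparisons at this stage, with -0.34 (adjusted p = 1.1e-07) against -0.19 in WT cells (adjusted p = 0.19). Without untreated WT replicate 1 the WT value was -0.30 and called, and the difference between the genotypes did not pass its own test (-0.15, adjusted p = 0.62). Of the SMC arms of cohesin, SMC1A fell by 0.42 and SMC3 by 0.22 in KO cells, and both missed the threshold in WT cells, at -0.34 (adjusted p = 0.14) and -0.18 (adjusted p = 0.12). Without untreated replicate 1 the WT values were -0.53 and -0.25, and both were called.

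**Figure D2:**
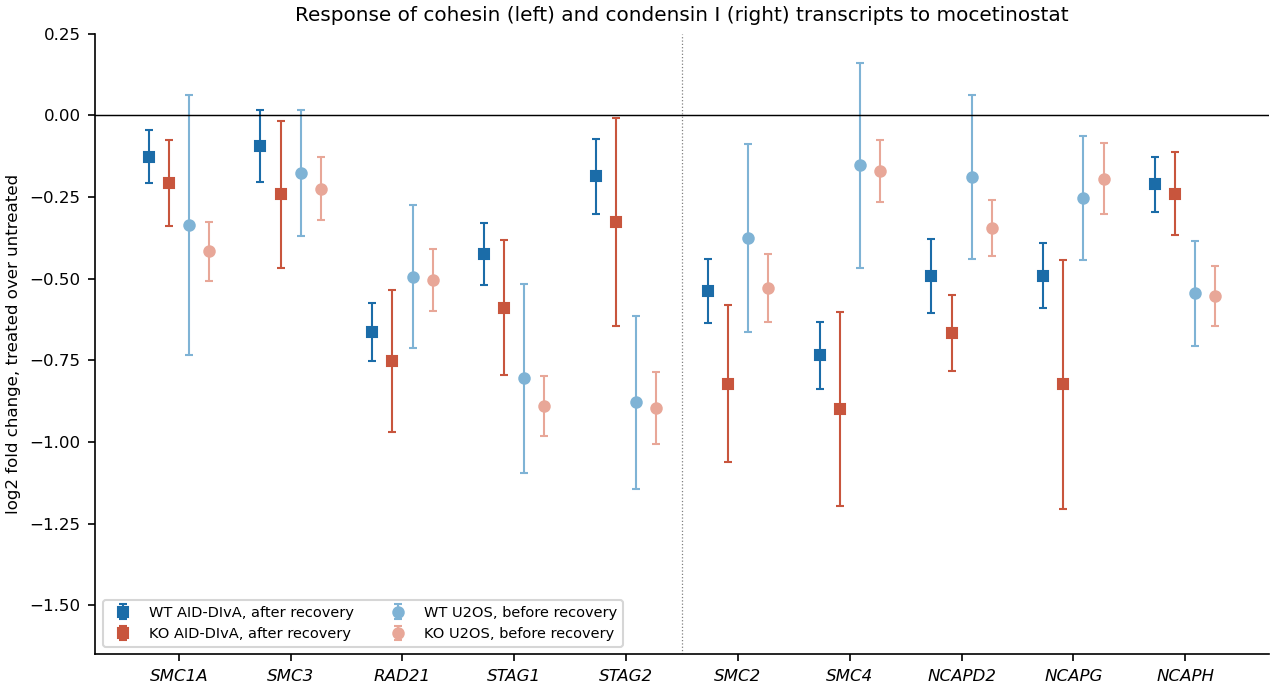
Log2 fold change of treated over untreated cells (y axis) with its 95% confidence interval for the 10 genes (x axis), after recovery as squares and before recovery as circles, WT in blue and ID3-KO in red. Every estimate lies below 0, from -0.09 for SMC3 to -0.90 for SMC4, and the largest falls belong to SMC4 after recovery and to STAG1 and STAG2 before it.

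The responses of single subunits were then compared between the stages, as the response after recovery in AID-DIvA cells minus that before recovery in U2OS cells, in a fit over all 24 libraries. This asks whether a gene was less or more reduced in recovered AID-DIvA cells than in treated U2OS cells. It cannot single out removal of the drug, because stage and cell line coincide. In WT cells 3 members had a higher response (weaker reduction) after recovery and 2 a lower one, beside 22.6% and 22.8% of all genes tested. In KO cells 3 were higher and 3 lower, beside 21.7% and 24.3%.

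STAG2 had the largest positive difference, 0.69 in WT (SE 0.16, adjusted p = 6.8e-04) and 0.57 in KO cells (SE 0.16, adjusted p = 0.0039). STAG1 differed by 0.38 (SE 0.12, adjusted p = 0.013) and 0.30 (SE 0.12, adjusted p = 0.045). Without untreated WT U2OS replicate 3 the WT value was 0.28 (adjusted p = 0.053). The STAG1 value in KO cells was called in 9 of 24 fits that each left out 1 library, with adjusted p from 0.0014 to 0.12. NCAPH differed by 0.34 in WT (SE 0.076, adjusted p = 7.3e-04) and 0.32 in KO cells (adjusted p = 0.0011), and was called in all 24 such fits in each genotype.

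In the opposite direction, the SMC4 response was lower after recovery by 0.58 in WT (log2 difference -0.58, SE 0.16, adjusted p = 0.0038) and by 0.73 in KO cells (-0.73, SE 0.16, adjusted p = 4.5e-04). Without untreated WT U2OS replicate 1 the WT value was -0.42, and without recovered KO AID-DIvA replicate 1 the KO value was -0.57. NCAPD2 differed by -0.30 (adjusted p = 0.019) and -0.31 (adjusted p = 0.014), and the WT value without untreated WT U2OS replicate 1 was -0.18 (adjusted p = 0.033). It was -0.23 and not called without recovered WT AID-DIvA replicate 1 (adjusted p = 0.074). NCAPG differed by -0.63 in KO cells (adjusted p = 0.0020), or -0.43 without recovered replicate 1, and by -0.24 in WT cells (95% confidence interval -0.56 to 0.092, adjusted p = 0.24), a value called without recovered KO AID-DIvA replicate 1 (-0.23, adjusted p = 0.039).

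The remaining members did not pass in either genotype. For RAD21 the differences were -0.17 (95% confidence interval -0.40 to 0.061) and -0.25 (-0.48 to -0.016), for SMC2 -0.16 and -0.29, for SMC1A 0.21 and 0.22, and for SMC3 0.08 and -0.02. SMC1A was called without untreated WT U2OS replicate 1, at 0.41 in WT (adjusted p = 1.1e-05) and 0.24 in KO cells (adjusted p = 0.0033). Without the same library SMC2 (-0.27, adjusted p = 0.026) and RAD21 (-0.22, adjusted p = 0.034) were called in KO cells. RAD21 was also called there without recovered KO replicate 3 (-0.31) or untreated KO AID-DIvA replicate 3 (-0.30). As a description, the order of the condensin I genes differed between the stages: NCAPH had the largest change of its complex before recovery in both genotypes and the smallest after it.

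**Figure D3:**
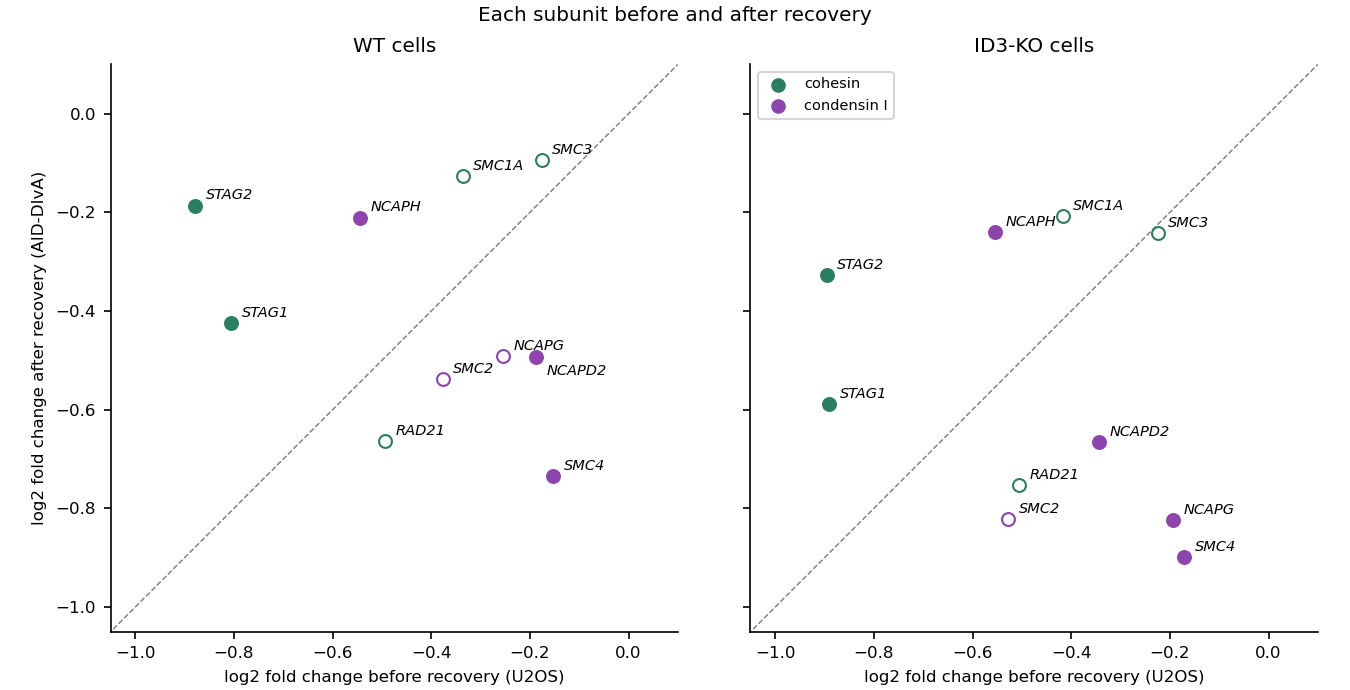
Log2 fold change before recovery in U2OS cells (x axis) against that after recovery in AID-DIvA cells (y axis) for each subunit, WT in the left and ID3-KO in the right panel, cohesin in green and condensin I in purple. Filled points differ between stages at an adjusted p below 0.05: STAG1, STAG2 and NCAPH lie above the dashed line of equal response in both panels, and SMC4 and NCAPD2 lie below it in both, with NCAPG in KO cells.

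For comparison, 53 genes of a published G2/M phase list, from which members were removed, stood at a median log2 fold change of -0.65 in WT and -0.92 in KO cells after recovery, and of -0.24 and -0.22 before it. The 43 genes of the S phase list had medians of 0.12 and -0.07 after recovery and -0.59 and -0.38 before it. Between genotypes, 35 of the 43 S phase genes were higher in KO than in WT treated U2OS cells (19% of all genes were). In untreated AID-DIvA cells 20 were higher (18.6%). Lower were 0 and 2, beside 19% and 18.1%. In untreated U2OS cells 5 were higher and 0 lower, beside 6.56% and 8.63%. In recovered AID-DIvA cells 1 was higher and 2 lower, beside 12.6% and 11.1%. Of 52 G2/M genes tested in each case, 25 were lower and 1 higher in KO recovered AID-DIvA cells, beside 11.1% and 12.6% of all genes. In treated U2OS cells 26 were higher and 7 lower in KO, beside 19% each. Of 53 tested in untreated AID-DIvA cells, 17 were lower and 6 higher in KO, beside 18.1% and 18.6%. Of 52 tested in untreated U2OS cells, 0 were lower and 3 higher, beside 8.63% and 6.56%. The part of cell cycle phase in the members' values was not tested.

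KO and WT cells were compared directly within each treatment. NCAPH was the only member called lower in KO cells, in all 4 comparisons. No member was called beyond a log2 difference of 1. Of all genes, 2.27% and 2.3% were called above 1 and below -1 in untreated AID-DIvA cells, 2.5% and 2.26% in recovered ones, 1.42% and 2.84% in untreated U2OS cells, and 1.31% and 2.18% in treated ones. In untreated AID-DIvA cells it had 135, 143 and 140 CPM in KO and 211, 210 and 212 CPM in WT libraries. That was 0.66 of the WT level (log2 difference -0.59, SE 0.041, adjusted p = 1.4e-08), and the recovered cells gave -0.61 (SE 0.058, adjusted p = 4.4e-05).

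In untreated U2OS cells NCAPH had 131, 138 and 141 CPM in KO and 165, 173 and 179 CPM in WT libraries. The groups did not overlap, and the log2 difference was -0.34 (SE 0.073, adjusted p = 0.020). This call was kept in 1 of 6 fits that left out a library, with differences of -0.37 to -0.30 and adjusted p up to 0.12. In treated U2OS cells the difference was -0.34 (SE 0.044, adjusted p = 3.7e-07). Whether the NCAPH difference was larger in AID-DIvA than in U2OS cells was not tested.

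Other members were higher in KO cells or did not pass. In untreated AID-DIvA cells 4 members were higher, beside 18.6% of all genes tested, and 18.1% were lower. These were NCAPD2 (log2 0.25, adjusted p = 1.4e-04), SMC3 (0.21, adjusted p = 0.0021), SMC2 (0.20, adjusted p = 0.0037) and SMC4 (0.18, adjusted p = 0.0056). RAD21 (0.01), STAG1 (-0.02), STAG2 (0.05), SMC1A (0.06) and NCAPG (-0.06) had 95% confidence intervals between -0.16 and 0.16.

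In untreated U2OS cells SMC3 was the only member called higher, at 0.36 (SE 0.084, adjusted p = 0.025), a call kept in 2 of 6 fits that left out a library, with adjusted p up to 0.12, beside 6.56% of all genes called higher and 8.63% lower. NCAPD2, SMC4 and SMC2 had differences of 0.38, 0.38 and 0.35 with adjusted p of 0.055, 0.11 and 0.11. The untreated WT replicate 1 was low for these genes, and without it 4 members were higher, NCAPD2 at 0.27, SMC4 at 0.24, SMC2 at 0.21 and SMC3 at 0.295.

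After treatment, 6 members were higher in KO U2OS cells, beside 19% of all genes, and 19% of genes were lower. The values were 0.37 for SMC4 (adjusted p = 9.4e-08), 0.32 for SMC3, 0.23 for NCAPD2, 0.20 for SMC2, 0.20 for SMC1A and 0.18 for NCAPG (adjusted p = 0.011), which was 0.13 and not called without treated WT replicate 2 (adjusted p = 0.11). STAG1 and RAD21 had differences of 0.10 (adjusted p = 0.12) and 0.09 (adjusted p = 0.13), and STAG2 0.05. RAD21 was called without treated KO replicate 1 (0.13, adjusted p = 0.010).

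In recovered AID-DIvA cells NCAPH was the only call, beside 12.6% of genes higher and 11.1% lower. NCAPG had the next largest difference, -0.38 (95% confidence interval -0.77 to 0.014, adjusted p = 0.16). Without KO replicate 1, 4 members were called: NCAPH at -0.63, NCAPG at -0.18 (adjusted p = 0.046), SMC4 at 0.19 (adjusted p = 0.039) and SMC3 at 0.18 (adjusted p = 0.046).

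**Figure D4:**
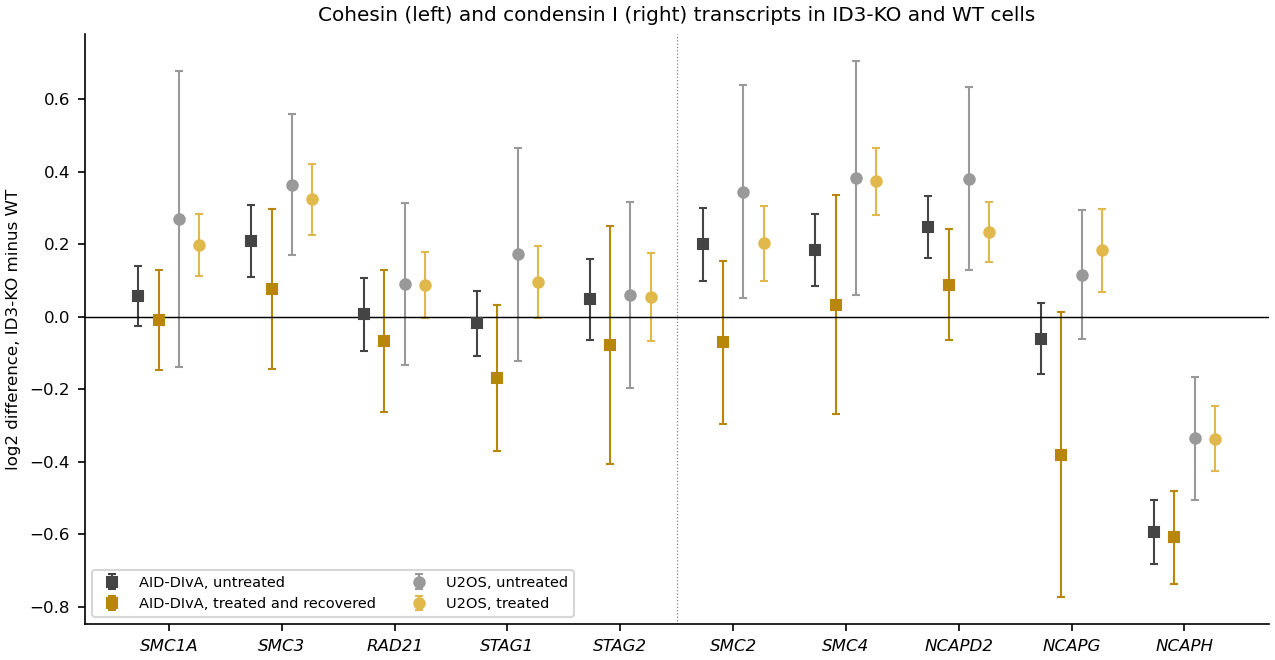
Log2 difference of ID3-KO minus WT cells (y axis) with its 95% confidence interval for the 10 genes (x axis), AID-DIvA as squares and U2OS as circles, untreated in grey and treated in yellow. NCAPH lies below 0 in all 4 comparisons, between -0.34 and -0.61, while SMC3 and NCAPD2 lie above 0 in all 4.

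The difference between the KO and WT responses to treatment was tested in the 4 groups of each cell line. After recovery none of the 10 members passed in edgeR, 2 had an unadjusted p below 0.05 (11.8% of all genes did), and DESeq2 called none, with 1 unadjusted p below 0.05. All 10 estimates were negative, from -0.02 for NCAPH to -0.32 for NCAPG, with a median of -0.15 against -0.02 over all genes, of which 1.21% were called. SMC2 differed by -0.28 (SE 0.12, unadjusted p = 0.040, adjusted p = 0.39) and NCAPD2 by -0.17 (SE 0.077, unadjusted p = 0.046, adjusted p = 0.41).

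Neither passed the adjustment over all genes, although their 95% confidence intervals lay below 0, from -0.54 to -0.015 for SMC2 and from -0.33 to -0.0031 for NCAPD2. Without recovered KO replicate 1 the estimates ran from -0.199 (SE 0.076) for NCAPD2 to 0.035 for STAG2, and the median was -0.05. NCAPD2 and SMC1A (-0.07 with all libraries and -0.13 without that one) were then farther from 0. SMC2 (-0.16), NCAPG (-0.12) and SMC4 (-0.0019) were nearer to it. For SMC4 the 95% confidence interval with all libraries ran from -0.51 to 0.19. Before recovery none of the members passed in edgeR or in DESeq2 and none had an unadjusted p below 0.05 (13.2% of all genes did, and 2.15% were called). The estimates lay between -0.15 for NCAPD2 and 0.06 for NCAPG, and without untreated WT replicate 1 between -0.04 for NCAPD2 and 0.13 for SMC4.

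The rest of the pathway was described from lists of genes that load, release, acetylate, cleave or protect cohesin, or build mitotic chromosomes. Their values, like those of the G2/M and S phase lists, rest on all libraries, including those that stood apart. Of 14 cohesin regulators, 11 were lower in WT and 10 in KO cells after recovery, beside 23% and 19.9% of all genes, and 7 and 10 before it, beside 22.9% and 34%. None was higher except 2 in KO cells before recovery, where 35.8% of all genes were higher. Their medians were -0.30 and -0.46 after recovery and -0.35 and -0.34 before it.

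SGO2, a shugoshin that protects centromeric cohesin from cleavage, fell most after recovery, from 101 ± 3.72 to 48.5 ± 4.22 CPM in WT cells (log2 -1.06, adjusted p = 1.6e-08). In KO cells it went from 99.4 ± 9.92 to 34.7 ± 12.1 CPM (log2 -1.51, adjusted p = 4.2e-04). It was the gene of the list past -1 in each genotype. Before recovery it stood at 0.05 in WT cells and rose by 0.20 in KO cells (adjusted p = 0.0024).

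Before recovery the lowest regulators were others. MAU2, a subunit of the cohesin loader, fell from 39.9 ± 2.79 to 19.8 ± 1.07 CPM in KO cells (log2 -1.01, adjusted p = 7.9e-13) and from 41.5 ± 2.75 to 23.0 ± 0.846 CPM in WT cells. CTCF, the factor at which cohesin stops on interphase chromosomes, fell from 103 ± 11.6 to 56.3 ± 2.25 CPM in WT cells (log2 -0.86, adjusted p = 2.7e-04). MAU2 had log2 differences of 0.03 and -0.01 after recovery and passed in neither genotype.

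The condensin II subunits also differed in the stage at which they were lower. NCAPG2, a HEAT repeat subunit, fell after recovery by 0.48 in WT (adjusted p = 2.5e-06) and by 0.70 in KO cells (adjusted p = 5.1e-05), and by 0.12 before it in KO cells (adjusted p = 0.019). NCAPH2, the kleisin, fell before recovery by 0.71 in WT (adjusted p = 0.0049) and by 0.57 in KO cells (adjusted p = 8.6e-09), and its differences of 0.02 and -0.02 after recovery did not pass. Of the 3 condensin II genes, 2 were lower in each genotype after recovery, beside 23% of all genes in WT and 19.9% in KO cells. Before recovery 1 was lower in WT and 3 in KO cells, beside 22.9% and 34%.

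All 4 genes of mitotic chromosome structure were lower in both genotypes after recovery, beside 23% of all genes in WT and 19.9% in KO cells. TOP2A, the topoisomerase that untangles sister chromatids, went from 971 ± 51.0 to 493 ± 82.9 CPM in KO cells (log2 -0.98, adjusted p = 1.0e-04). KIF4A, a chromokinesin that works with condensin I, fell by 0.69 in WT cells (adjusted p = 2.8e-08). TOP2B, the isoform that is not tied to cycling cells, fell least after recovery, by 0.28 and 0.33, and most before it, by 0.54 in WT and 0.50 in KO cells.

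Of 7 genes of the SMC5/6 complex, the third SMC complex, 1 was higher and 1 lower after recovery in each genotype. Of all genes, 23.9% were higher and 23% lower in WT cells, and 20.2% and 19.9% in KO cells. NSMCE1 rose by 0.33 in WT and by 0.34 in KO cells, and SMC5 fell by 0.35 and by 0.44. Before recovery NSMCE4A fell by 0.30 in WT cells, and in KO cells NSMCE1 fell by 0.14 and EID3 rose by 1.07 (adjusted p = 0.0019) at 11 to 46 counts per library. Of 4 meiotic cohesin genes, REC8 and STAG3 were lower after recovery in both genotypes, at -0.29 and -0.35 in WT and -0.37 and -0.50 in KO cells. The other 2 passed no filter on low counts there. Of 3 tested before recovery, 1 was higher and 1 lower in WT cells, beside 26% and 22.9% of all genes. In KO cells 2 were higher and 1 lower, beside 35.8% and 34%. The lower one was REC8 (-0.86 in WT and -0.55 in KO cells). RAD21L1 rose before recovery, by 1.18 in WT (adjusted p = 0.032) and 2.53 in KO cells (adjusted p = 7.5e-05), at only 1 to 25 counts per library.

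**Figure D5:**
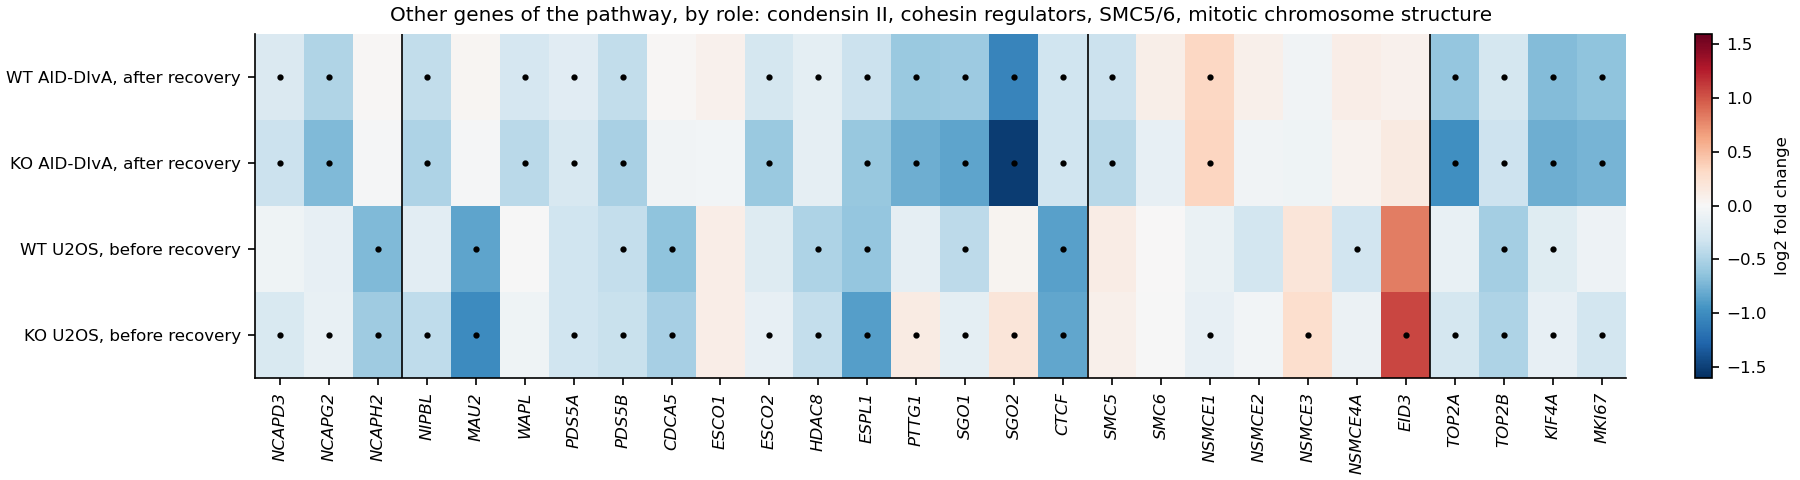
Log2 fold change of treated over untreated cells (colour, blue lower and red higher) for condensin II, cohesin regulators, SMC5/6 and mitotic chromosome structure genes (x axis) in the 4 treatment comparisons (y axis), with a dot where the adjusted p was below 0.05. SGO2 is the darkest blue after recovery, at -1.51 in KO cells, and MAU2 and CTCF are darker blue in the U2OS rows than in the AID-DIvA rows, at -1.01 and -0.83 in KO cells.

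Ratios of subunits within a library were described without a test, in TPM. STAG2 made up 43.3% ± 0.895 of the STAG1 plus STAG2 level in untreated and 47.4% ± 0.711 in recovered WT AID-DIvA cells, and the replicates of these groups did not overlap. In KO AID-DIvA cells it was 44.4% ± 0.967 and 48.6% ± 2.78. In U2OS cells the means of the 4 groups lay between 40.1% and 42.1%, and single libraries between 38.97% and 43.11%. The ratio of RAD21 to SMC3 was 1.74 ± 0.012 in untreated and 1.17 ± 0.060 in recovered WT AID-DIvA cells, and 1.51 ± 0.072 and 1.06 ± 0.065 in KO cells. In U2OS cells the same ratio went from 1.57 to 1.26 in WT and from 1.30 to 1.07 in KO cells.

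The ratio of the condensin I kleisin to its SMC partner, NCAPH to SMC2, was 2.36 ± 0.020 in untreated WT and 1.36 ± 0.076 in untreated KO AID-DIvA cells. In untreated U2OS cells it was 2.79 ± 0.40 and 1.71 ± 0.084. The replicates of WT and KO cells did not overlap in either line. After recovery the ratio was 2.96 ± 0.15 in WT and 2.08 ± 0.40 in KO cells, and before recovery 2.45 ± 0.13 and 1.69 ± 0.099. Replicates ran from 1.80 to 2.54 in recovered KO and from 2.52 to 3.25 in untreated WT U2OS cells, groups with a library that stood apart.

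Across the 24 libraries, log2 CPM of the members (here scaled over all 24) was correlated as a description, the libraries sharing their groups and cell lines. The median Pearson's r was 0.83 among the 10 pairs of cohesin genes, 0.68 among the 10 pairs of condensin I genes, and 0.76 among the 25 pairs between complexes. The lowest r within condensin I was 0.039. Among 10273 genes of at least 10 CPM, the 5 most like the mean profile of condensin I were KIF14 (r = 0.991), RACGAP1 (0.982), ASPM (0.978), ARHGAP11B (0.977) and CASC5 (0.976), of which KIF14, RACGAP1 and ASPM act in spindle function or cytokinesis and CASC5 at the kinetochore. The 5 most like cohesin were ZC3H7A (0.987), PBRM1 (0.987), BARD1 (0.985), EPC2 (0.985) and ZZZ3 (0.985), of which PBRM1 is a subunit of a chromatin remodeller and BARD1 the partner of BRCA1.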

How the data were processed

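RNA was sequenced from 24 samples of WT and ID3-KO cells in 8 groups of 3 biological replicates. The authors aligned paired reads of stranded total RNA libraries to hg19 (GRCh37) with STAR and deposited fragment counts per gene from featureCounts (tool versions are not given in the sources used here). They also deposited TPM per gene, which have the same sum in each library and were used only to compare genes with each other. A further TPM column with larger sums was not used.

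Counts from either strand were tested with the edgeR 4.0.16 quasi-likelihood test in R 4.3.3, with TMM factors and the filterByExpr filter, and Benjamini-Hochberg adjustment over all genes tested. A gene was called at an adjusted p below 0.05, and counted again with a log2 fold change beyond 1. Treatment was compared within a genotype (6 libraries), genotype within a treatment (6 libraries), the responses of both genotypes in 12 libraries, and the stages in 24 libraries. CPM were scaled over the 12 libraries of a cell line, so these CPM are not on a common scale between cell lines. For the correlations across the 24 libraries, CPM were instead scaled over all 24. The depth of 37878751 to 76906266 counts covers counting error only. The test was run on simulated counts with log2 changes of 1 in either direction and no library that stood apart. That check does not cover smaller changes, such as those of the members, or libraries that stand apart.

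The members and lists were chosen with earlier results of these data known. Named were all 10 members, pathway genes called beyond a log2 fold change of 1 after recovery or called as the largest or smallest of their role group in a treatment comparison, with their values in the other comparisons, the 5 genes most like each complex, and ID3. The G2/M and S phase lists came from Seurat 5.3.0, without the members. Alternatives were DESeq2 1.42.0, its size factors, filters on low counts (none, or at least 10 counts in every library), a replicate block, reverse-strand counts, all groups of a cell line in 1 fit, CPM on raw totals, and leaving out each library. PECAM1 was not analysed here.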

Additional observations from a re-analysis of the deposited data

Results flagged for a closer look

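The responses of 6 members differed between the stages, after recovery in AID-DIvA cells and before it in U2OS cells, by the test of the difference itself (edgeR quasi-likelihood, adjusted over all genes). In WT cells the log2 difference was 0.69 for STAG2, 0.38 for STAG1, 0.34 for NCAPH, -0.30 for NCAPD2 and -0.58 for SMC4. In KO cells it was 0.57 for STAG2, 0.30 for STAG1, 0.32 for NCAPH, -0.31 for NCAPD2, -0.63 for NCAPG and -0.73 for SMC4. In WT cells 3 members were higher and 2 lower, beside 22.6% and 22.8% of all genes tested. In KO cells 3 were higher and 3 lower, beside 21.7% and 24.3%. The counts of members lie near these shares. The STAG1 call in KO cells was kept in 9 of 24 fits that left out 1 library. The stage and the cell line cannot be told apart in these values.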

How the results depend on the processing

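No value of a member that was called reversed its direction under any alternative. Requiring a log2 difference beyond 1 left 0 members in each of the 8 comparisons of a pair of groups. With all 4 groups of a cell line in 1 fit, 2 members were called between genotypes in untreated AID-DIvA cells (5 otherwise), 5 in untreated U2OS cells (2 otherwise) and 3 in treated U2OS cells (7 otherwise). Leaving out 1 library at a time, the treatment counts were 8 to 10 in WT and 7 to 8 in KO cells after recovery, and 4 to 10 in WT and 10 to 10 in KO cells before it. The genotype counts were 5 to 5 and 0 to 5 in untreated AID-DIvA and U2OS cells and 1 to 4 and 6 to 8 in treated ones, the interactions 0 to 0, and the differences between stages 4 to 6 in WT and 5 to 9 in KO cells.

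Same-numbered samples did not deviate together (median correlation -0.108 in AID-DIvA and 0.0571 in U2OS cells), so the numbers were not taken as a pairing. With the replicate block, 0 members were called between genotypes in untreated U2OS cells, and 9, 7, 5 and 10 in the treatment comparisons in the order above.

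Over all genes, the count between genotypes in untreated U2OS cells was 3132, 1266 to 8627 with 1 library left out, and 2243 to 5658 in other fits. In recovered AID-DIvA cells other fits gave 3152 to 6419 (4759 otherwise), and in treated U2OS cells as few as 4389 (8267 otherwise). The interaction counts were 258 (122 to 297, and 157 to 613) and 488 (257 to 2091, and 393 to 920). CPM on raw totals were 0.967 to 1.04 times the TMM-scaled values.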
